A study of Mus musculus with 6 samples.

Results

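The 10 genes described here are the pantothenate kinases Pank1, Pank2 and Pank3 and the acyl-CoA thioesterases Acot1, Acot2, Acot3, Acot4, Acot8, Acot11 and Acot13. They were chosen by gene family with their measured difference between genotypes in these same libraries in view, and all 10 were found by their mouse Entrez gene IDs among the 24415 IDs of the count table. Their differences between genotypes are therefore given as a description, with no test of their own.

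Coenzyme A carries acyl groups through fatty acid synthesis, oxidation and the citric acid cycle. Pantothenate kinases phosphorylate vitamin B5 in the first and rate-controlling step of coenzyme A synthesis, and acyl-CoA species feed back on them. Acyl-CoA thioesterases run in the opposite sense to acyl-CoA synthetases: they split acyl-CoA into a free acyl acid and coenzyme A, in cytosol, mitochondria or peroxisomes according to the enzyme. Several thioesterase genes are known targets of the nuclear receptor PPARα, and Acot11 was first described as a thioesterase induced by cold in brown fat.

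RNA came from the inguinal fat pad, a white depot under the skin, of non-fasted C57BL/6 mice aged 12 weeks. The groups were WT (3 mice) and Hsp20 KO (3 mice), with 1 library per mouse and no treatment. Hspb6 encodes Hsp20, a small heat shock protein. The labels do not say which part of the gene was deleted or in which cells. The strand setting of the read counting is likewise not stated. Libraries held from 14078936 to 32648746 counts.

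Hspb6 itself stood at 12.6, 9.43 and 8.94 CPM (a gene's counts relative to the whole library, with sizes scaled by edgeR's TMM method) in WT replicates 1 to 3. Across Hsp20 KO replicates 1 to 3, as labelled, it stood at 8.85, 1.51 and 3.93 CPM, so the library labelled replicate 1 lay next to WT. Its log2 change was -1.08 (edgeR quasi-likelihood, Benjamini-Hochberg adjusted p = 0.227), or -1.99 without that library (edgeR adjusted p = 0.0221). Every direction below sets the 3 KO-labelled libraries against WT. WT replicate 1 also stood apart, with a summed level of 790 CPM over 8 skeletal muscle markers against 70.9 to 130 CPM in the other 5 libraries. Markers of white adipocytes were high throughout. Their summed level over 10 genes was 19210 to 21200 CPM in WT and 14750 to 20550 CPM in the KO-labelled libraries. Of the 10, 0 passed in edgeR, and 3 had an unadjusted p under 0.05, as did 4152 of all 15994 genes tested. DESeq2 called 1, lower, and limma-voom 0. With the library labelled KO replicate 1 left out, edgeR called 2 of these white adipocyte markers, both lower (10.3% of all genes).

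Of the pantothenate kinases, Pank1 was about 4-fold higher in the KO-labelled libraries, Pank3 was moderately higher and Pank2 was near its WT level. Of the thioesterases, Acot11 was about 6-fold higher, Acot1, Acot2 and Acot4 were about 2-fold higher, Acot13 was somewhat higher, Acot8 was near its WT level and Acot3 was barely counted. Of the 10 genes, 9 had enough counts for the fit across all 15994 genes. In that fit 6 of the 9 were past an adjusted p of 0.05, all higher, against 7.65% of all genes in either direction and 4.23% in the higher direction. The groups did not overlap for 7 of the 9, all higher, against 32.5% of all genes tested in either direction and 16.9% in the higher direction. Since the choice of genes used this contrast, nothing is read from these shares. The median log2 change of the 9 was 0.80, against 0.0006 over all genes tested. In whole tissue, a change in the number of cells of a type and a change in RNA per cell cannot be told apart.

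**Figure D1:**
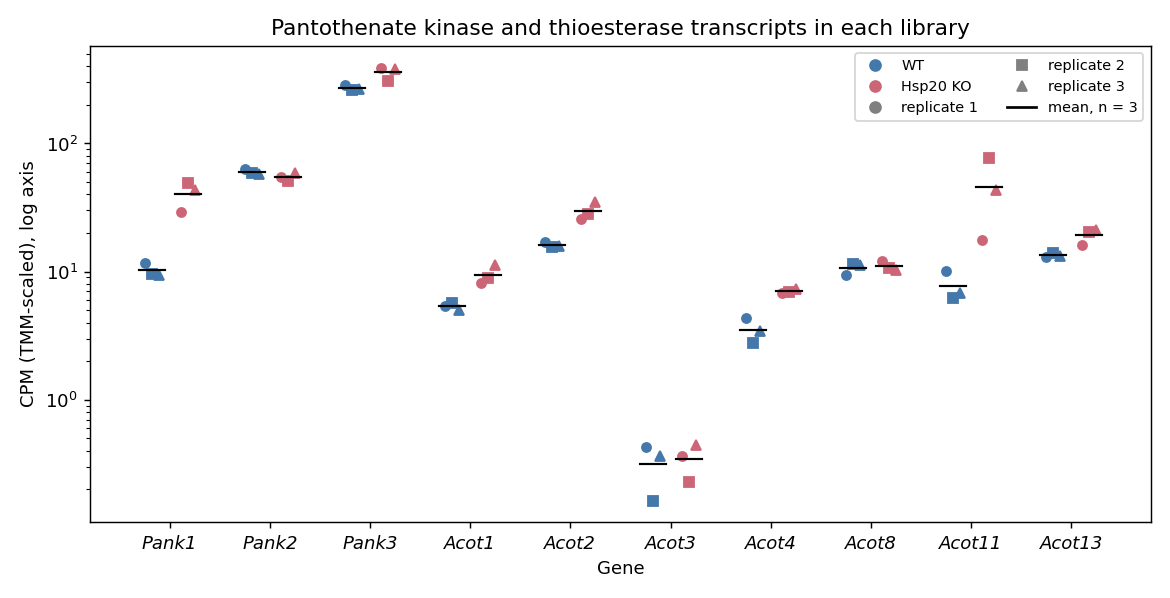
CPM of each of the 10 genes (log axis) in the 3 WT and the 3 libraries labelled Hsp20 KO, with the mean of each group as a bar. Pank1 and Acot11 show the widest gap between groups, and the library labelled KO replicate 1 lies nearest to WT for both.

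Pank1 (chromosome 19, 34806940 to 34879455 on GRCm38, minus strand) encodes a kinase made as a longer and a shorter form, which gene counts do not separate. It had 302, 293 and 314 counts in WT replicates 1 to 3 and 811, 1064 and 583 in the KO-labelled libraries. These were 11.7, 9.56 and 9.49 CPM against 29.3, 48.7 and 43.3 CPM. All 3 KO-labelled libraries were above all 3 WT libraries, and the library labelled replicate 1 was the lowest of the 3. The group means were 10.3 and 40.4 CPM (SD of 1.27 in WT and a coefficient of variation of 24.8% in the KO-labelled libraries, n = 3 each), with a log2 change of 1.98 ± 0.19 (SE).

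Pank2 (chromosome 2, 131262495 to 131299188, plus strand) is the homologue of the human gene whose loss causes pantothenate kinase-associated neurodegeneration. It stood at 63.0, 58.7 and 58.0 CPM in WT and 54.9, 51.0 and 58.8 CPM in the KO-labelled libraries. The groups overlapped, and the log2 change was -0.13 ± 0.08 (SE). Of its exon bases 22.9% lie opposite exons of Rnf24, so reads of the pair may be mixed. For Rnf24 the log2 change was 0.14 (edgeR adjusted p = 0.656).

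Pank3 (chromosome 11, 35769484 to 35791285, plus strand) encodes a cytosolic kinase and was the most abundant of the 10 genes. It stood at 288, 264 and 268 CPM in WT and at 391, 310 and 383 CPM in the KO-labelled libraries. The groups did not overlap, and the library labelled replicate 2 came closest to WT. Its log2 change was 0.40 ± 0.11 (SE), short of the threshold in the fit over all genes.

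Because Pank3 dominated, the summed level of the kinases moved much less than Pank1 did. Summed over Pank1, Pank2 and Pank3 and divided by exon length, the level was 53.2, 48.8 and 49.3 CPM per kb in WT and 67.7, 58.2 and 69.1 CPM per kb in the KO-labelled libraries, a ratio of means of 1.29. Pank1 supplied 2.66%, 2.37% and 2.33% of that sum in WT and 5.23%, 10.1% and 7.57% in the KO-labelled libraries. Pank2 supplied 24.2% ± 0.266 in WT and 17.2% ± 0.677 in the KO-labelled libraries (SD, n = 3 each), and Pank3 73.4% ± 0.294 and 75.2% ± 3.11. The share of Pank1 was thus higher in each KO-labelled library than in any WT library, and that of Pank2 lower.

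**Figure D2:**
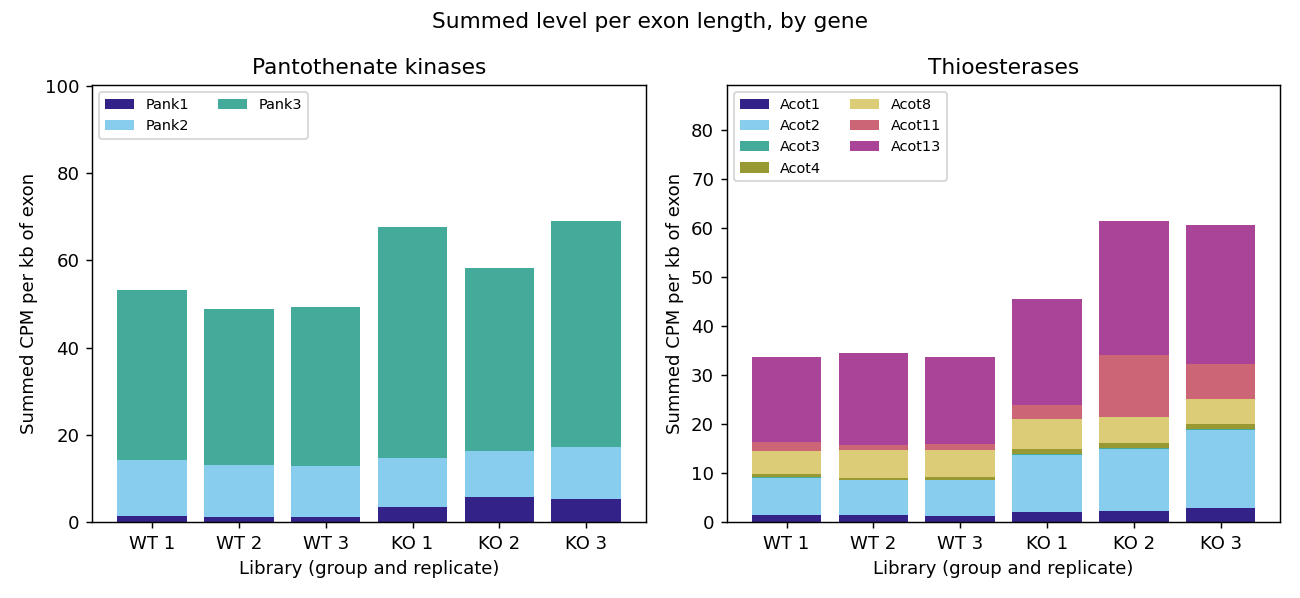
Summed CPM per kb of exon in each library, stacked by gene, for the 3 pantothenate kinases and the 7 thioesterases. Pank3 fills most of every kinase bar, and Acot13 and Acot2 fill most of the thioesterase bars, with Acot11 visible in the KO-labelled libraries replicates 2 and 3.

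Each of these kinase genes carries a miRNA in an intron on its own strand, and the sequences are shown because the 3 hosts differed in their response while the miRNAs share 1 seed (bases 2 to 8, in capitals; RefSeq, GRCm38.p6). The coordinates are chr19:34820700-34820722 (minus strand) in Pank1, chr2:131288103-131288125 (plus strand) in Pank2 and chr11:35782447-35782469 (plus strand) in Pank3.
miR-107-3p in Pank1: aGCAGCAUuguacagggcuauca
miR-103-3p in Pank2: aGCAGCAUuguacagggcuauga
miR-103-3p in Pank3: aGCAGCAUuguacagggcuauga
The copies in Pank2 and Pank3 were identical, and miR-107-3p differs from them at 1 base, G22C, counted from the 5′ end of the mature miRNA with the miR-103-3p base first. Mature miRNAs were not measured: the rows of the hairpin genes held 0 counts for Mir107 and Mir103-1 in every library and, for Mir103-2, 3 counts in WT replicate 1 and 1 in the library labelled KO replicate 1.

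Acot1, Acot2, Acot4 and Acot3 lie side by side on the plus strand of chromosome 12 between 83987861 and 84060402, and encode related enzymes for long-chain acyl-CoA (Acot1 in the cytosol, Acot2 in mitochondria, Acot3 in peroxisomes) and for succinyl-CoA and dicarboxylyl-CoA (Acot4 in peroxisomes). Acot1 and Acot2 are 95.3% identical over 1236 aligned coding bases, and 24.5% of the 50-base words of the Acot2 transcript occur in Acot1 transcripts. Their counts are therefore uncertain where reads could be placed on either gene. Within the coding sequence the pair differs at the start of Acot2, which opens with 41 codons before the position aligned to the Acot1 start. It is shown here because it holds the leader that directs Acot2 to mitochondria (chr12:83987902-83988024, plus strand, GRCm38).
Acot2, first 123 coding bases: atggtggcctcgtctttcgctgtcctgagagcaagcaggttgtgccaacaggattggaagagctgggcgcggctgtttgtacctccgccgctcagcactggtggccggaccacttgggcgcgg
The next 60 coding bases of Acot2 (chr12:83988025-83988084) and the first 60 of Acot1 (chr12:84009510-84009569) differ at 10 bases, in capitals.
Acot2: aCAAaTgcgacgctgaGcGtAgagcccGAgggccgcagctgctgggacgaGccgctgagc
Acot1: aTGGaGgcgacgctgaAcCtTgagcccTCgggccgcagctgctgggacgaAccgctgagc

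Acot2 (83987861 to 83993873) had 438, 478 and 527 counts in WT and 712, 612 and 471 in the KO-labelled libraries, which were 17.0, 15.6 and 15.9 CPM against 25.7, 28.0 and 35.0 CPM. All KO-labelled libraries were above WT, and replicate 3 was the highest. Its mean in WT, 16.2 ± 0.732 CPM, compared with 29.6 ± 4.81 CPM in the KO-labelled libraries (SD, n = 3 each). Its log2 change was 0.86 ± 0.12 (SE).

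Acot1 (84009490 to 84018371) stood at 5.43, 5.64 and 5.05 CPM in WT and 8.09, 8.97 and 11.3 CPM in the KO-labelled libraries. It kept the order of Acot2 across the KO-labelled libraries and a log2 change of 0.80 ± 0.16 (SE). The ratio of Acot2 to Acot1 counts was 3.13, 2.76 and 3.16 in WT and 3.18, 3.12 and 3.10 in the KO-labelled libraries. The mix of the pair was thus close in all 6 libraries, lowest in WT replicate 2. How far the shared sequence sets that ratio was not tested.

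Acot4 (84038379 to 84048601) stood at 4.31, 2.77 and 3.42 CPM in WT and at 6.83, 6.96 and 7.27 CPM in the KO-labelled libraries. Its groups did not overlap, and the 3 KO-labelled libraries lay close together, with a coefficient of variation of 3.25% against 22.0% in WT. Its log2 change was 1.01 ± 0.18 (SE), and ran from 0.86 without WT replicate 2, the lowest WT library, to 1.17 without WT replicate 1, the highest. It fell short of the threshold when WT replicate 2, WT replicate 3 or KO-labelled replicate 3 was left out. Acot3 (84052144 to 84060402) had 11, 5 and 12 counts in WT and 10, 5 and 6 in the KO-labelled libraries, too few for the fit, so a difference was not detectable at this depth. Acot3 and Acot4 share 312 and 615 exon bases with the antisense gene 4732463B04Rik.

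Summed over Acot1 to Acot4 per exon length, the level in WT, 9.35 ± 0.476 CPM per kb, compared with 17.0 ± 2.66 CPM per kb in the KO-labelled libraries (SD, n = 3 each). The make-up of this sum barely moved. Acot2 supplied 78.8% ± 0.500 in WT and 79.0% ± 0.477 in the KO-labelled libraries, and Acot1 14.7% ± 1.13 and 14.1% ± 0.266 (SD, n = 3 each).

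Acot11 (chromosome 4, 106744555 to 106804998, minus strand), also called Them1 or BFIT, showed the largest difference of the 10 genes. It had 262, 189 and 227 counts in WT and 485, 1674 and 587 in the KO-labelled libraries, which were 10.2, 6.17 and 6.86 CPM against 17.5, 76.6 and 43.6 CPM. The KO-labelled libraries were spread widely, with a coefficient of variation of 64.5%, and its libraries lay 1.18, 3.31 and 2.50 log2 units above the mean of WT, in the order of their replicate numbers. The log2 change was 2.57 ± 0.50 (SE). Without the library labelled KO replicate 2 it was 1.97, without replicate 1 it was 2.97, and without WT replicate 1, the highest WT library, it was 2.81.

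Of the exon bases of Fam151a, 65.7% lie opposite exons of Acot11, 1263 bases or 20.9% of the Acot11 exon length. Fam151a had 67, 44 and 52 counts in WT and 121, 442 and 169 in the KO-labelled libraries (log2 change 2.73, edgeR adjusted p = 0.0284). It followed Acot11 from library to library more closely than any of the 14672 genes compared. With no strand setting given, reads of this pair cannot be told apart.

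Acot13 (chromosome 13, 24817948 to 24831540, minus strand), also called Them2, encodes a small thioesterase that associates with mitochondria and with phosphatidylcholine transfer protein. It stood at 13.0, 14.1 and 13.3 CPM in WT and at 16.1, 20.4 and 21.0 CPM in the KO-labelled libraries. The groups did not overlap, and replicate 1 was again the lowest of its group. The log2 change was 0.51 ± 0.12 (SE).

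Acot8 (chromosome 2, 164792765 to 164804882, minus strand) encodes a peroxisomal thioesterase of broad substrate range. It stood at 9.43, 11.4 and 11.3 CPM in WT and at 12.1, 10.6 and 10.2 CPM in the KO-labelled libraries. The groups overlapped, with a log2 change of 0.04 ± 0.13 (SE), and the sign turned when WT replicate 1 (-0.05) or KO-labelled replicate 1 (-0.04) was left out. Of its exon bases 12.3% lie opposite Snx21.

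The library labelled KO replicate 1, in which Hspb6 was near its WT level, had the lowest level of its group for all 6 genes past the threshold (Pank1, Acot1, Acot2, Acot4, Acot11 and Acot13). Replicate 3 had the highest for 4 of them and replicate 2 for the remaining pair, Pank1 and Acot11. Pank3, short of the threshold, was highest in replicate 1 (391 CPM, against 310 and 383 CPM in replicates 2 and 3). Replicate 1 also lay nearer to WT over all genes. On the axis of largest variation it stood at 17.3, against 37 and 35 in replicates 2 and 3 and -32.2 to -27.2 in WT. For how many other genes it was the lowest was not counted, and a relation to Hspb6 was not tested. Without the library labelled replicate 1 the same 6 genes were past the threshold and 10.3% of all genes were called. Without WT replicate 1, 3 were past it (Pank1, Acot2 and Acot4, with 4.02% of all genes called). Without WT replicate 2 or 3 only Pank1 was past it (0.847% and 0.792% of all genes), with 7 of the 10 at an unadjusted p under 0.05. In those fits 3277 of 16179 and 2921 of 16159 genes had an unadjusted p under 0.05. Without the library labelled KO replicate 3, Pank1 and Acot2 were past it (3.64%). Without replicate 2, 5 were past it: Pank1, Pank3, Acot2, Acot4 and Acot11 (3.76%). Other settings left the same 6 past the threshold with DESeq2 size factors (7.81% of all genes), upper quartile normalization (7.77%), no filter (6.33%) or a count of at least 10 in 3 libraries (7.59%). DESeq2's Wald test called 7, with Pank3 added (9.95%), limma-voom 4, without Acot11 and Acot13 (7.29%), and a block on the replicate number 2 (2.47%).

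Markers of brown fat moved in the same libraries. These markers, like the lists below, were chosen with earlier results of these data known, so nothing is read from their share of calls. Of the 13 listed, 10 rose and 0 fell (edgeR adjusted p under 0.05), against 4.23% of all genes higher and 3.42% lower. Their median log2 change was 2.53. The largest changes were in Ucp1 (6.51 ± 1.03 SE, edgeR adjusted p = 0.016), Elovl3 (5.10 ± 0.48, 0.00324), Fabp3 (3.76 ± 0.69, 0.0238) and Cpt1b (3.20 ± 0.45, 0.0112). Those not called were Ppargc1a (0.02 ± 0.33 SE, edgeR adjusted p = 0.983), Prdm16 (0.21 ± 0.19, 0.531) and Ebf2 (0.30 ± 0.16, 0.298). With 1 WT library left out the list had 7 (replicate 1, 4.02% of all genes), 2 (replicate 2, 0.847%) or 2 calls (replicate 3, 0.792%). With 1 KO-labelled library left out it had 10 (replicate 1, 10.3%), 6 (replicate 2, 3.76%) or 6 (replicate 3, 3.64%). Limma-voom called 6 of the markers (7.29% of all genes) and a block on the replicate number left 4 (2.47%). Their summed level was 178 to 249 CPM in WT and 415, 954 and 1131 CPM in the KO-labelled libraries replicates 1 to 3, and 0 of the 13 were at 0 counts in all libraries. Their part in the differences of the Pank and Acot genes was not tested.

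Per exon length, the order of the levels in WT was Pank3 (37.0 ± 1.74 CPM per kb), Acot13 (18.1 ± 0.722), Pank2 (12.2 ± 0.550), Acot2 (7.36 ± 0.333), Acot8 (5.37 ± 0.558), Acot1 (1.37 ± 0.0772), Acot11 (1.28 ± 0.353), Pank1 (1.24 ± 0.153), Acot4 (0.524 ± 0.115) and Acot3 (0.0923 ± 0.0400; SD, n = 3). Acot1, Acot11 and Pank1 did not differ from each other beyond their spread. In the KO-labelled libraries Acot2 (13.5 ± 2.19) came before Pank2 (11.2 ± 0.788), and Acot11 (7.58 ± 4.89), Acot8 (5.49 ± 0.498) and Pank1 (4.89 ± 1.21) lay within each other's spread. With coding length in place of exon length, Pank3 stayed first and Acot3 last, while Pank2 (44.7 CPM per kb of coding sequence) came before Acot13 (32.0) and Pank1 (6.13) before Acot11 (4.12) and Acot1 (3.90) in WT.

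Over the 6 libraries, the genes whose log2 CPM profile was closest to that of Pank1 were Fasn (root mean square difference 0.127), Acly (0.147), Sorcs2 (0.152) and Mpzl2 (0.153), against a median of 1.01 over 14672 genes. Fasn is fatty acid synthase and Acly makes the cytosolic acetyl-CoA it uses. Fasn stood at 5400, 3748 and 4251 CPM in WT and at 13390, 19710 and 22070 CPM in the KO-labelled libraries. The genes closest to Acot11 were Fam151a (0.0927), Cox7a1 (0.294), Cidea (0.301) and Sorcs2 (0.341), against a median of 1.35. Cox7a1 and Cidea are markers of brown fat. These are descriptions over 6 libraries that fall into the study's groups, and much of the likeness is the shared difference between them.

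**Figure D3:**
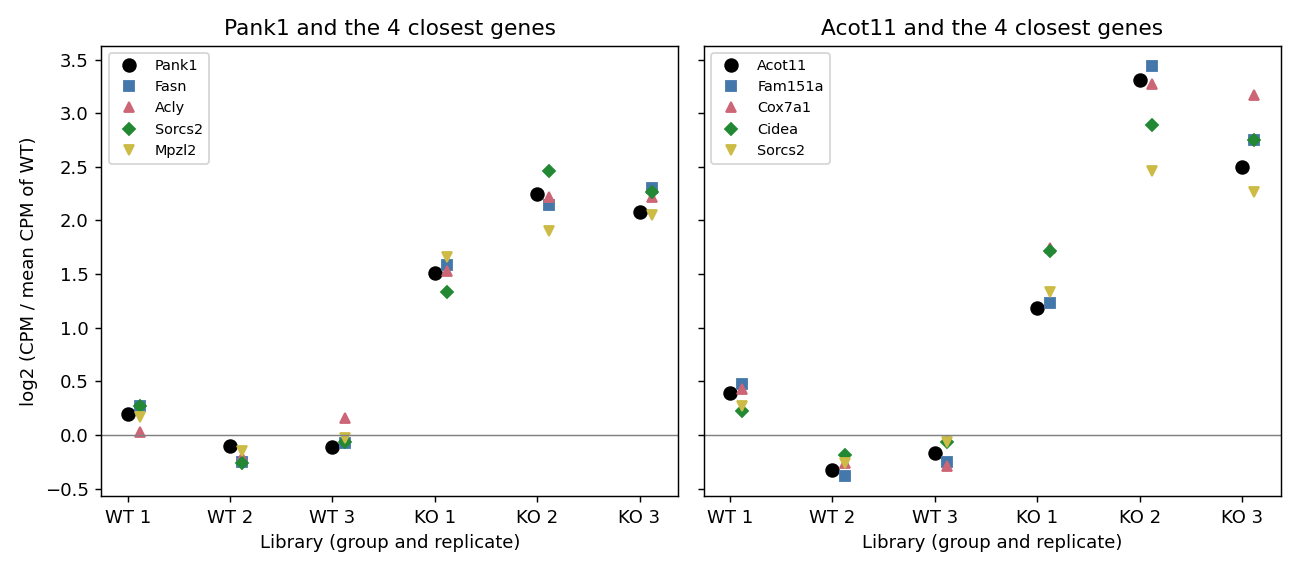
log2 of CPM over the WT mean in each of the 6 libraries for Pank1 and Acot11 (black) and the 4 genes closest to each (colours). Fasn and Acly run with Pank1, and Fam151a runs with Acot11 in every library.

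The remaining pantothenate kinase and thioesterase genes did not pass, while 7.65% of all genes tested were called in either direction. They are those left after the 10 were chosen with this contrast in view, so nothing is read from their lack of calls. Of 14 listed, 10 were tested and 0 were called by edgeR's quasi-likelihood test. Of these, 1 had an unadjusted p under 0.05, Ppt2 (log2 change 0.33, adjusted p = 0.0574), which DESeq2 called and limma-voom did not. The edgeR test called Ppt2 with upper quartile normalization (adjusted p = 0.0476) and without the library labelled KO replicate 1 (adjusted p = 0.0447). It did not call Ppt2 in its other settings. The next lowest p was that of Ppt1, like Ppt2 a lysosomal thioesterase (log2 change 0.14, edgeR adjusted p = 0.374). Pank4, a relative of the kinases that acts as a phosphatase, stood at 31.5 ± 2.78 CPM in WT and 32.4 ± 2.57 CPM in the KO-labelled libraries (SD, n = 3 each). Acot7, a cytosolic thioesterase best known from brain, stood at 19.9 ± 2.38 and 20.6 ± 2.50 CPM. Acot5 and Acot6, the next genes of the chromosome 12 cluster, were low, at 0.530 and 1.85 CPM in WT, and had log2 changes of 0.31 ± 0.33 and -0.0008 ± 0.28 (SE; edgeR adjusted p = 0.598 and 0.999). The median log2 change of the 10 was 0.04.

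Genes upstream and downstream of the kinase step were among those that changed. In the list of coenzyme A synthesis, transport and breakdown, 4 of 13 rose and 1 fell (edgeR adjusted p under 0.05), with a median log2 change of 0.22. This list too was chosen with earlier results known, so nothing is read from its share of calls. Of all genes tested, 4.23% were higher and 3.42% lower. Slc5a6, the carrier that brings pantothenate and biotin into cells, rose from 40.9, 48.9 and 46.5 CPM in WT to 102, 78.1 and 102 CPM (log2 change 1.05 ± 0.13 SE, edgeR adjusted p = 0.00675). Coasy, the enzyme of the last steps, stood at 50.7 ± 2.40 CPM in WT and rose to 76.3 ± 3.25 CPM, with no overlap between groups (log2 change 0.59 ± 0.07 SE, edgeR adjusted p = 0.00776). Ppcs, which adds cysteine to phosphopantothenate, rose by 0.56 ± 0.11 (edgeR adjusted p = 0.0282). Ppcdc, the decarboxylase between them, had a log2 change of 0.22 ± 0.11 and did not pass (edgeR adjusted p = 0.26).

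The peroxisomal coenzyme A hydrolases went in opposite directions. Nudt7, at 32.0 ± 2.17 CPM in WT, rose to 51.3 ± 6.00 CPM (edgeR adjusted p = 0.0152). Nudt19, at 24.5 ± 0.630 CPM in WT, fell to 18.4 ± 1.90 CPM (edgeR adjusted p = 0.0416; SD, n = 3 each). With 1 WT library left out the list had 3 (replicate 1, 4.02% of all genes), 2 (replicate 2, 0.847%) or 1 call (Slc5a6, replicate 3, 0.792%). With 1 KO-labelled library left out it had 6 (replicate 1, 10.3% of all genes), 3 (replicate 2, 3.76%) or 4 (replicate 3, 3.64%). Nudt19 was called in 1 of these 6 fits, the one without the library labelled KO replicate 3.

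**Figure D4:**
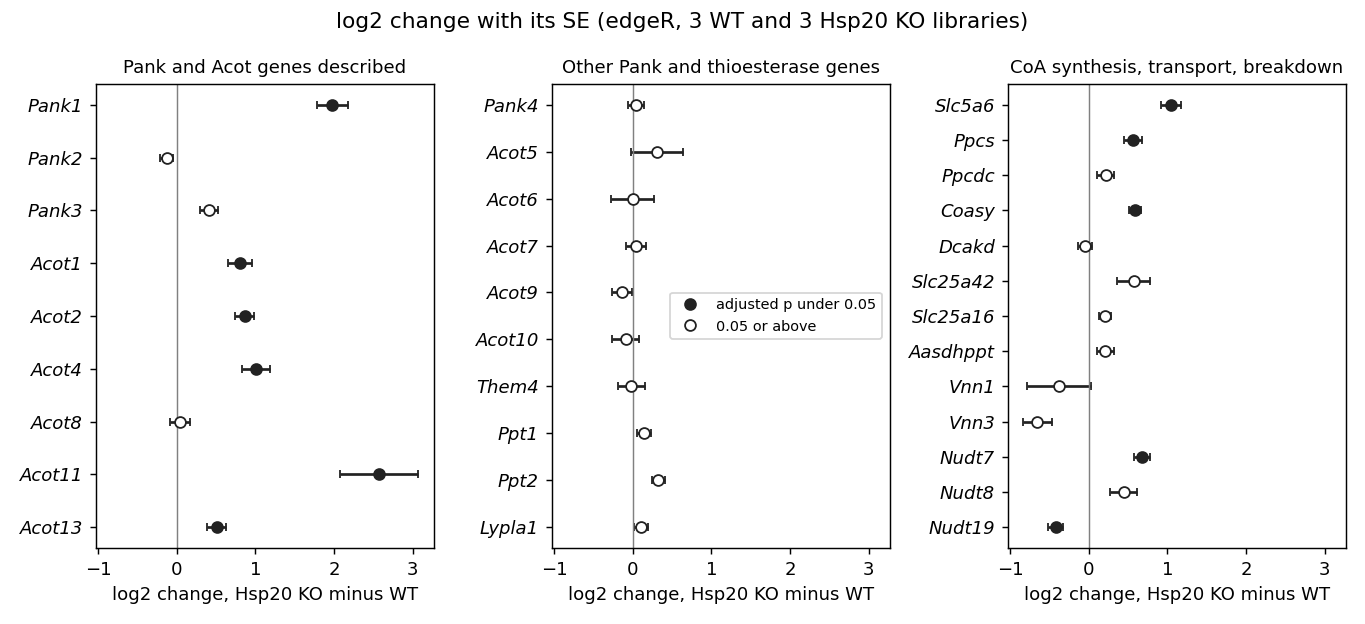
log2 change between the libraries labelled Hsp20 KO and WT with its SE, for the tested genes among the 10 described, the other pantothenate kinase and thioesterase genes, and the coenzyme A list. Filled points had an edgeR adjusted p under 0.05; Pank1 and Acot11 lie farthest to the right, and the points of the middle panel are all open.

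Acyl-CoA synthetases, the enzymes that oppose thioesterases, rose for 5 of 12 tested and fell for 0 (median log2 change 0.30). The synthetases were also listed with earlier results known, so nothing is read from their share of calls. Of all genes tested, 4.23% were higher and 3.42% lower. Those with the largest change were Acss2 (log2 change 1.49 ± 0.17 SE, edgeR adjusted p = 0.00655), which makes acetyl-CoA from acetate, Acsl1 (0.86 ± 0.20, 0.0427), the main long-chain synthetase of fat, and Acsf3 (0.81 ± 0.14, 0.0218) and Acsf2 (0.57 ± 0.11, 0.027), synthetases of mitochondria. With the library labelled KO replicate 1 left out, 5 were called in this list (10.3% of all genes). Leaving out WT replicate 1 gave 2 calls (4.02%), and each of the other 4 libraries 1 (0.792% to 3.76%).

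Among known PPAR target genes outside the 10 described, 6 of 15 tested rose and 0 fell (median log2 change 0.69). As with the other lists, earlier results were known when these targets were chosen, so nothing is read from their share of calls. Of all genes tested, 4.23% were higher and 3.42% lower. The largest changes were in Fabp3 (3.76 ± 0.69 SE, edgeR adjusted p = 0.0238), Cpt1b (3.20 ± 0.45, 0.0112), Plin5 (2.18 ± 0.40, 0.0242) and Hadha (1.19 ± 0.18, 0.0127), genes of fatty acid binding, mitochondrial entry, lipid droplets and beta-oxidation. Fabp3 and Cpt1b are also in the brown fat list. When WT replicate 2 or 3 was left out, 0 of 16 passed in edgeR, and 8 had an unadjusted p under 0.05. Over all genes, 3277 of 16179 and 2921 of 16159 had an unadjusted p under 0.05 in those fits. Leaving out KO-labelled replicate 1 gave 10 calls (10.3% of all genes), and each of the other 3 libraries 2 (3.64% to 4.02%). Limma-voom called 5 (7.29% of all genes) and DESeq2 called 8 (9.95%).

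Regulators were likewise listed with earlier results known, so nothing is read from their share of calls. Of 11 tested regulators 2 rose and 0 fell (median log2 change 0.24), against 4.23% of all genes higher and 3.42% lower. The 2 were Mlxipl, which encodes the glucose-responsive factor ChREBP (0.80 ± 0.16 SE, edgeR adjusted p = 0.0279), and Esrra, which encodes the estrogen-related receptor ERRα (0.73 ± 0.10, 0.0113). Ppara stood at 32.4, 21.5 and 13.8 CPM in WT and at 32.1, 87.5 and 76.1 CPM in the KO-labelled libraries. Its groups overlapped and it did not pass (edgeR adjusted p = 0.0636). It passed without the library labelled KO replicate 1 (edgeR adjusted p = 0.0125), and with all 6 libraries under DESeq2's Wald test (adjusted p = 0.0387) or with no filter on low counts (edgeR adjusted p = 0.0421). DESeq2 called 4 regulators (9.95% of all genes) and limma-voom 2 (7.29%). When WT replicate 2 or 3 was left out, 0 of the 11 passed in edgeR, and 4 or 5 had an unadjusted p under 0.05. So did 3277 of 16179 and 2921 of 16159 of all genes. Without the library labelled KO replicate 1 edgeR called 3 regulators (10.3% of all genes).

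The 250 bases before the RefSeq start sites (GRCm38.p6) were searched on both strands for 9 of the 10 genes, 14 start sites in all. The PPAR response element, a direct repeat of the letters AGGTCA with 1 base between, to which PPAR binds with its partner RXR, was in 0 of the 14, and in 0.0335% of 32851 such sequences of all genes. A single AGGTCA, which each of those repeats also holds, was in 1, that of Acot4, and in 4607 of the 32851. The ERR element TCAAGGTCA was in 0 of the 14 (0.387% of all), and the E-box CACGTG was in 2, at Acot4 and at the inner start of Acot11, against 6.02% of all. CCAAT was in 10 of the 14, against 33.8% of all, and GGGCGG in 6 of the 14, against 32.7% of all. Start sites of 1 gene can overlap, as those of Acot3 do, so the 14 are not independent. An absent match says only that these letters were not in this window.

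The upstream sequences of Acot1 and Acot2 are shown because the coding sequences are nearly identical and the counts kept 1 ratio, while the stretches before the start sites shared 0 of 239 words of 12 bases. Those of Acot4 and of the inner start of Acot11 are shown for their E-boxes. Capitals mark the E-box, the single AGGTCA and the CCAAT box on either strand. Their coordinates are chr12:83987611-83987860, chr12:84009252-84009501 and chr12:84038129-84038378 (plus strand) and chr4:106799832-106800081 (minus strand).
Acot2: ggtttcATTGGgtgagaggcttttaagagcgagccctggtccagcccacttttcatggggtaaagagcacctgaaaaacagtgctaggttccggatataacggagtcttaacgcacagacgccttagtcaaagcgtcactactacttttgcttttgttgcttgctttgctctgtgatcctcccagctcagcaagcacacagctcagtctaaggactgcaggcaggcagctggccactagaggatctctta
Acot1: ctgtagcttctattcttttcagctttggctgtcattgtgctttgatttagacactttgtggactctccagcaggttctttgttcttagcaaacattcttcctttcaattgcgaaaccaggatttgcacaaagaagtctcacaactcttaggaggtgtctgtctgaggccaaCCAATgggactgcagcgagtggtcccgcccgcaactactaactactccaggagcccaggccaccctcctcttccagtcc
Acot4: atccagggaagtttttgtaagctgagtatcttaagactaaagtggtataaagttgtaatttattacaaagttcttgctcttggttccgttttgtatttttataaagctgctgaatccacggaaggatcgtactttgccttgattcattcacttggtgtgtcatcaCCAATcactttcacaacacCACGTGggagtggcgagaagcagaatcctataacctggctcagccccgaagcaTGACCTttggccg
Acot11, inner start: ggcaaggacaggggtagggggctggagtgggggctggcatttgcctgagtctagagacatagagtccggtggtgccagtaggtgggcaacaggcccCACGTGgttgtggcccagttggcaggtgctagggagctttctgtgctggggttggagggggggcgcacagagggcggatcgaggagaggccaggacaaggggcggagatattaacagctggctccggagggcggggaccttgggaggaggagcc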

How the data were processed

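The table that the authors deposited holds raw counts of reads for each gene ID, with a column for each of the 6 mice. TopHat, DESeq, bcl2fastq and CASAVA 1.8 appear in the submitters' processing notes, with mm10 and GRCm38 as builds. The counting program, its annotation and its strand setting are not stated. Each column carries a name that the labels give for 1 sample, and 24334 of 24415 gene IDs had symbols in RefSeq for GRCm38.p6. Library totals ran from 14078936 to 32648746 counts, which limits the precision of low genes.

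All genes were fitted together with edgeR 4.0.16 in R 4.3.3: filterByExpr (minimum count 10, minimum total 15), TMM scaling, then the quasi-likelihood F test of genotype, without covariates; p-values were Benjamini-Hochberg adjusted over all genes at a threshold of 0.05. SE was taken as the size of the log2 change over the square root of F. Levels per length used exon unions of GENCODE M21 (GRCm38). Likeness used log2 CPM (prior count 2) centred on each gene's mean, for genes of at least 1 CPM. The fit was also run on simulated data, but no result of that run is given here and nothing is read from it. The members and lists were chosen with earlier results of these data known. Named genes are the 10 members, up to 4 called genes per list by size of change or, with none called, the 2 with the smallest p, and Hspb6, Coasy, Ppcs, Ppcdc, Pank4, Acot7 and Ppara, and the 4 genes closest to Pank1 and to Acot11 (Fasn, Acly, Sorcs2, Mpzl2, Fam151a, Cox7a1 and Cidea, with Sorcs2 in both). Rnf24, Snx21 and 4732463B04Rik for their overlap, Acot5 and Acot6 for their position, and Nudt19 to complete a list were added after values were seen. Ppargc1a, Prdm16 and Ebf2, the brown fat markers not called, were also added then. Markers of macrophages, lymphocytes and epithelium were also summed, and 0 of 6, 0 of 6 and 0 of 3 tested were called (edgeR; 3, 1 and 0 at an unadjusted p under 0.05), as were 0 of 8 muscle markers (6 at an unadjusted p under 0.05). Of all 15994 genes tested, 4152 had an unadjusted p under 0.05. DESeq2 called 2 macrophage markers, both lower, and 0 in the other lists of these markers, and limma-voom called 0 in all of them. Without the library labelled KO replicate 1, edgeR called 3 macrophage markers, all lower (10.3% of all genes). Without replicate 2 it called 1 macrophage and 3 lymphocyte markers, all lower (3.76%). Without replicate 3 it called 1 lymphocyte marker, higher (3.64%). Nothing says that the mice were of separate litters, so p-values measure the spread between these libraries. Alternatives used DESeq2 1.42.0 and limma 3.58.1, and figures matplotlib 3.10.9.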

Additional observations from a re-analysis of the deposited data

How the results depend on the processing

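Of 15994 genes tested, 1223 were called. The count was 2153 with DESeq2's Wald test and 395 with a replicate block, and it ran from 128 to 1671 when single libraries were left out. Of the 10 Pank and Acot genes described, 6 were called, against 2 with the replicate block (Pank1 and Acot2) and from 1 to 6 when single libraries were left out. Of the genes of the 5 companion lists, 18 were called, against 6 with the replicate block and from 2 to 25 when single libraries were left out. DESeq2 size factors, upper quartile normalization, no filter and a count of at least 10 in 3 libraries changed none of the calls of the 10 genes, DESeq2's test added Pank3, and limma-voom lost Acot11 and Acot13. The labels do not say whether the same replicate numbers pair the mice. The correlations of deviations between same-numbered libraries were -0.038, 0.0917 and -0.0957, against -0.084 to 0.12 between the others. Not every library correlated best with its own number, but with 3 libraries in each group these values cannot exclude a pairing. Of the 9 genes tested in all 6 libraries, the direction changed in 1, Acot8, whose log2 change ran from -0.0496 (WT replicate 1 left out) to 0.0901, and was -0.0413 with KO-labelled replicate 1 left out. Acot3, too low to test there, passed the filter in some settings and ran from -0.22 (WT replicate 2 left out) to 0.33 (WT replicate 1 left out). With coding length in place of exon length all 10 WT levels per length moved by more than 1 SD. That follows from dividing the same CPM by a shorter length, so only the order of the genes can be compared. The smallest library, at 14078936 counts, limits what can be seen of Acot3. The cause of the lost calls was not tested.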
